A study of Mus musculus with 9 samples.

Results

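The expression of 10 genes of bile acid synthesis, transport and feedback control was examined in the liver of mice fed diets that differed in protein and fat: Cyp7a1, Cyp8b1, Cyp27a1, Cyp7b1, Slc27a5, Baat, Abcb11, Slc10a1, Nr1h4 and Nr0b2. The genes were chosen by name from the array annotation, and all 10 had a value, among 19938 genes in all, with 1 probe set each. Liver RNA of 5 male C57BL/6J mice was pooled per group, and each of the 9 pools was run on 1 Affymetrix Mouse Gene 1.0 ST array. High protein (HP) diets supplied 50% of energy as protein and normal protein (NP) diets 15%. High fat (HF) diets supplied 35% of energy as fat and low fat (LF) diets 10%. The remaining energy was carbohydrate, 15% in the HF-HP, 40% in the LF-HP, 50% in the HF-NP and 75% in the LF-NP diet. Higher protein and lower carbohydrate therefore cannot be told apart here, nor can higher fat and lower carbohydrate.

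All mice, wild type and without any further agent, first received the LF-NP diet as a run-in and were killed after a calibrated meal. The HF-HP, LF-HP, HF-NP and LF-NP groups were studied after 1 week on the diet (labelled as 13 weeks of age) and after 12 weeks (labelled as 22 weeks of age, which is less than the age at the start plus the time on the diet). The reference group was killed at the end of the run-in, at 12 weeks of age and week 0 of the intervention. Each diet and week has 1 pool, so a pool averages its mice and no error given is one between mice. SDs are those between pools of different diet or week. SEs and intervals rest on the spread between pools that the fitted terms for protein, fat and week leave over.

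Values are log2 signals from the robust multiarray analysis (RMA), so a difference of 1 is a doubling of signal. The 9 arrays resembled each other closely, with correlations across genes between 0.988 and 0.993, and no pool stood apart by that measure. The 5 measured hepatocyte markers had mean signals of 13.19 to 13.88, on arrays whose values ran from 1.41 to 14.46. Since whole liver was measured, fewer cells of a type and less RNA per cell cannot be told apart.

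Bile acids are made from cholesterol in hepatocytes, along a classical route that starts with Cyp7a1 and an alternative route that runs through Cyp27a1 and Cyp7b1. The acids are activated and conjugated by Slc27a5 and Baat, pumped into bile by Abcb11 and taken back from portal blood by Slc10a1. Bile acids activate the nuclear receptor FXR, encoded by Nr1h4, which induces SHP, encoded by Nr0b2, and SHP in turn restrains Cyp7a1 and Cyp8b1.

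Between HP and NP pools, 0 of the 10 genes passed the test (limma, Benjamini-Hochberg adjusted p between 0.277 and 0.987), while 0.441% of all genes did. The lowest values in HP pools relative to NP pools belonged to the feedback pair: Nr0b2 differed by -0.63 and Nr1h4 by -0.26 on the log2 scale. Cyp8b1 followed with -0.21. These 3 genes had an unadjusted p under 0.05, which is 30% of the 10 genes against 10.3% of all genes, and none of them kept it after adjustment. The 2 shares are not of genes at a like signal. The 10 genes had mean signals of 8.13 to 12.99, and the median gene mean was 5.85. The 10 genes were also chosen with earlier results of these data known. The difference was positive for 4 genes and negative for 6, with a median of -0.06 against a median of -0.0043 over all genes. The median size of the difference was 0.11, against 0.07 over all genes. In 0 of the 10 genes did the HP and NP pools fall into separate ranges, which 4.79% of all genes did. Matched comparisons, in which each HP pool was set against its NP counterpart of equal fat level and duration, had the same sign in all 4 cases for 4 genes (Cyp8b1, Nr1h4 and Slc10a1 lower, Slc27a5 higher), and for 14.1% of all genes.

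**Figure D1:**
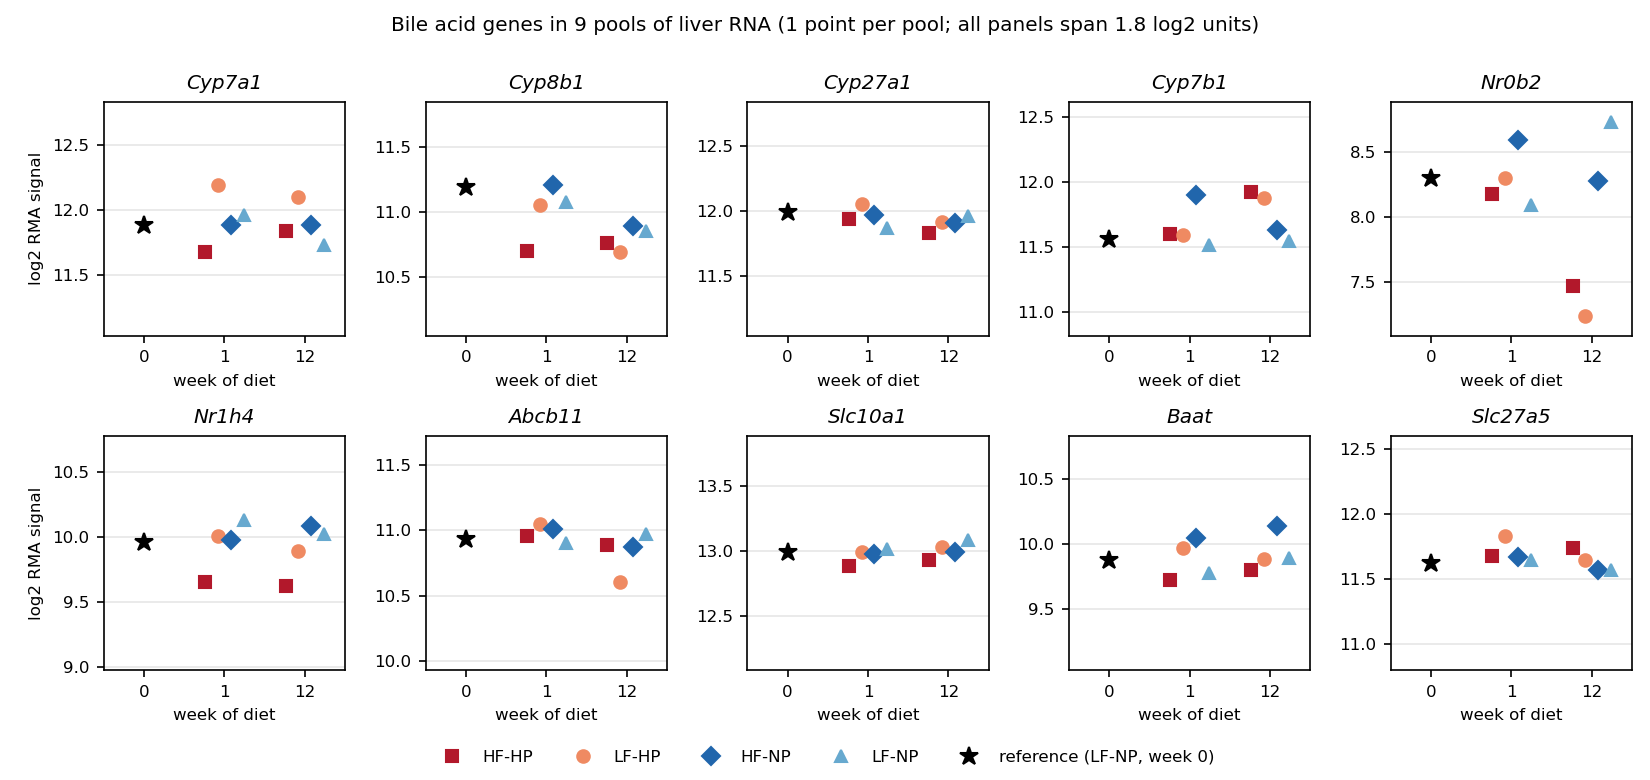
The log2 RMA signal (vertical axis) of the 10 bile acid genes is plotted against the week of diet (horizontal axis), with 1 point for each of the 9 pools and every panel spanning 1.8 log2 units. Most genes stay within a narrow band, whereas the 2 HP pools of 12 weeks lie at 7.47 and 7.24 for Nr0b2, below all other pools.

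Nr0b2 (probe set 10508887) encodes SHP, a repressor that lacks a DNA-binding domain and acts through other nuclear receptors such as NR5A2 and HNF4A. The log2 signal was 8.17 and 7.47 in the HF-HP pools of 1 and 12 weeks and 8.30 and 7.24 in the LF-HP pools. NP pools measured 8.59 and 8.27 on the HF diet and 8.09 and 8.73 on the LF diet, and the reference pool 8.30. The 2 HP pools of 12 weeks were the lowest of all 9, whereas the HP pools of 1 week lay inside the range of the NP pools, so the groups overlapped. Means were 7.79 ± 0.52 in HP and 8.42 ± 0.29 in NP pools (SD, n = 4 pools each). The difference of -0.63 (SE 0.24, 95% interval -1.18 to -0.08) corresponds to a fold of 0.647, with an interval of 0.442 to 0.947, and did not pass the test (limma adjusted p = 0.408). HP was below NP in 3 of 4 matched comparisons. They gave -0.42 and -0.81 on the HF diet at 1 and 12 weeks and 0.20 and -1.49 on the LF diet.

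For Nr0b2 the HP minus NP difference was -1.15 in the pools of 12 weeks alone and -0.11 in those of 1 week alone. The protein by week interaction, which measures this change of the difference, was -1.04 (SE 0.30, 95% interval -1.76 to -0.32), and after adjustment over all genes it did not pass (limma adjusted p = 1). The size of the difference also rested on single pools. Without the LF-NP pool of 12 weeks, the highest of the 9, it was -0.38, and without the LF-NP pool of 1 week it was -0.87.

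The promoter of Nr0b2 from RefSeq is shown because it holds a sequence read by NR5A2, a receptor through which SHP acts. It gives the 250 bases before the start of the gene, chr4:133553126-133553375 of GRCm38.p6 on the plus strand, with capitals at the match to CAAGGCCA, which begins 201 bases before the start.
Nr0b2: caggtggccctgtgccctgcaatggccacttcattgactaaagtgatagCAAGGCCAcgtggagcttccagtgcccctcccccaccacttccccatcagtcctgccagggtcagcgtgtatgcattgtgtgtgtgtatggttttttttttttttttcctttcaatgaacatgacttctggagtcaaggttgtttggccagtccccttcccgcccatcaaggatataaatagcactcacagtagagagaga
Of 32851 RefSeq promoters of 300 bases (250 before and 50 after each start), 2.4% hold CAAGGCCA on either strand and 1.56% hold CAAGGTCA, the other form searched, which no promoter of the 10 genes held. A match of letters is a description and does not show that the factor binds there.

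Nr1h4 (probe set 10371784) encodes FXR, the receptor that senses bile acids. The log2 signal was 9.65 and 9.63 in the HF-HP pools of 1 and 12 weeks and 10.01 and 9.89 in the LF-HP pools, against 9.98 and 10.09 in the HF-NP pools, 10.13 and 10.02 in the LF-NP pools and 9.97 in the reference. Both HF-HP pools were lower than every other pool, and the HP and NP ranges met only where the LF-HP pool of 1 week exceeded the HF-NP pool of 1 week. Means were 9.80 ± 0.19 in HP and 10.05 ± 0.07 in NP pools (SD, n = 4 each). HP was lower in 4 of 4 matched comparisons, by a fitted -0.26 (SE 0.08, 95% interval -0.44 to -0.08), a fold of 0.835. This was the smallest adjusted p among the 10 genes (limma adjusted p = 0.277) and did not pass. In HF pools alone the HP minus NP difference was -0.39 and in LF pools alone -0.13, with a protein by fat interaction of -0.27 (95% interval -0.57 to 0.04, limma adjusted p = 0.719). Of the motifs searched, the RefSeq promoter of Nr1h4 held only the receptor core motif AGGTCA, which begins 214 bases before its start and is found in 16.3% of all promoters. This promoter, chr10:89506609-89506908 on the minus strand, lies inside the gene, which spans chr10:89454234-89533645.

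**Figure D2:**
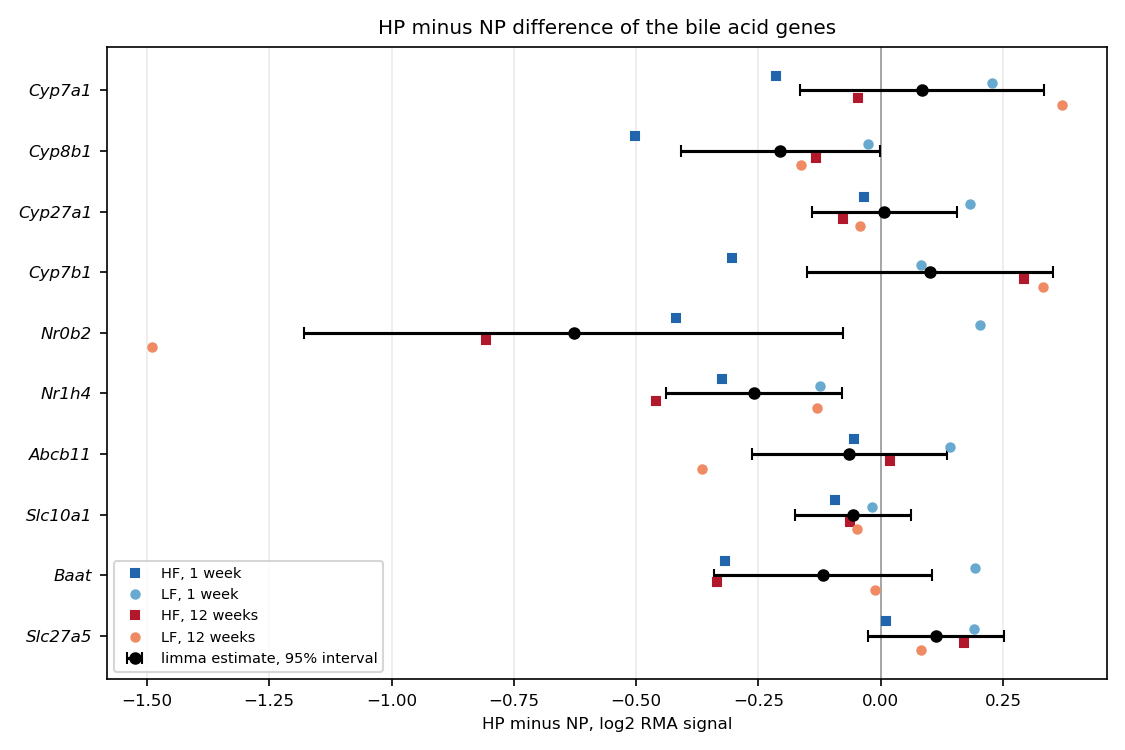
For each of the 10 genes, black points and bars give HP minus NP on the log2 RMA scale (horizontal axis) with the 95% interval from limma, and coloured points give the 4 matched comparisons. The interval of Nr0b2 is the widest, from -1.18 to -0.08, and its matched values run from -1.49 to 0.20.

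Cyp7a1 (probe set 10511375) encodes cholesterol 7-alpha-hydroxylase, the rate-limiting enzyme of the classical route. The log2 signal was 11.68 and 11.84 in the HF-HP pools of 1 and 12 weeks and 12.19 and 12.10 in the LF-HP pools, against 11.89 and 11.89 in the HF-NP pools, 11.97 and 11.73 in the LF-NP pools and 11.89 in the reference. The LF-HP pools were the 2 highest and the HF-HP pool of 1 week the lowest, so HP pools surrounded the NP pools on both sides. Means were 11.95 ± 0.24 in HP and 11.87 ± 0.10 in NP pools (SD, n = 4 each), a difference of 0.08 (SE 0.11, 95% interval -0.17 to 0.33, limma adjusted p = 0.868). On the HF diet the HP minus NP difference averaged -0.13 over both weeks, and on the LF diet 0.30. The protein by fat interaction was -0.43 (SE 0.15, 95% interval -0.80 to -0.06), and it did not pass after adjustment (limma adjusted p = 0.706).

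Cyp8b1 (probe set 10597875) encodes sterol 12-alpha-hydroxylase, which sets the share of cholic acid among the bile acids made. Its log2 signal was 10.70 and 10.76 in the HF-HP pools of 1 and 12 weeks and 11.05 and 10.69 in the LF-HP pools, against 11.20 and 10.89 in the HF-NP pools, 11.08 and 10.85 in the LF-NP pools and 11.19 in the reference. The 3 lowest pools were all HP, and 7 of the 8 diet pools lay below the reference, which is a single pool. The LF-HP pool of 1 week nevertheless exceeded both NP pools of 12 weeks, so the ranges overlapped. Means were 10.80 ± 0.17 in HP and 11.01 ± 0.16 in NP pools (SD, n = 4 each), and HP was lower in 4 of 4 matched comparisons. The fitted difference was -0.21 (SE 0.09, 95% interval -0.41 to -0.0026) and did not pass (limma adjusted p = 0.48). Without the HF-HP pool of 1 week the difference was -0.11.

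The promoter of Cyp8b1 from RefSeq is shown because it holds a sequence read by HNF4A, a hepatocyte receptor that activates this gene and through which SHP can act. The 250 bases before the start, chr9:121916306-121916555 of GRCm38.p6 on the minus strand, carry CAAAGTCCA in capitals, which begins 67 bases before the start.
Cyp8b1: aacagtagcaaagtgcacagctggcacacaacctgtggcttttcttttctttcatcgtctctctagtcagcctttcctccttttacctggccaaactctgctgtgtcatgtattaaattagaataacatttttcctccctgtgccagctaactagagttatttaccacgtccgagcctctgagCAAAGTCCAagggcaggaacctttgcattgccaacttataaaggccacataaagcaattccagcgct
CAAAGTCCA is found on either strand in 0.475% of the promoters. The other HNF4A form searched, CAAAGGTCA, is found in 0.478% of them and in none of the promoters of the 10 genes.

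The 2 enzymes of the alternative route differed in how much they varied. Cyp27a1 (probe set 10347481), the mitochondrial sterol 27-hydroxylase, measured 11.94 and 11.83 in the HF-HP pools of 1 and 12 weeks and 12.05 and 11.92 in the LF-HP pools, against 11.97 and 11.90 in the HF-NP pools, 11.87 and 11.96 in the LF-NP pools and 11.99 in the reference. The HP range enclosed the NP range, and the HP minus NP difference was 0.0074 (SE 0.06, 95% interval -0.14 to 0.16, limma adjusted p = 0.987). Cyp7b1 (probe set 10497381), the oxysterol 7-alpha-hydroxylase, measured 11.60 and 11.92 in the HF-HP pools of 1 and 12 weeks and 11.60 and 11.88 in the LF-HP pools, against 11.90 and 11.63 in the HF-NP pools, 11.52 and 11.55 in the LF-NP pools and 11.56 in the reference. Its 3 highest pools were both HP pools of 12 weeks and the HF-NP pool of 1 week, and the difference over all pools was 0.10 (SE 0.11, 95% interval -0.15 to 0.35, limma adjusted p = 0.833). It was 0.03 when the LF-HP pool of 12 weeks was left out, and 0.22 when the HF-NP pool of 1 week was. In the pools of 12 weeks alone the HP minus NP difference of Cyp7b1 was 0.31 and in those of 1 week alone -0.11. The protein by week interaction was 0.42 (SE 0.16, 95% interval 0.03 to 0.81) and did not pass (limma adjusted p = 1).

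Slc27a5 and Baat encode the 2 steps of conjugation. Slc27a5 (probe set 10560045), the bile acid CoA ligase, measured 11.68 and 11.74 in the HF-HP pools of 1 and 12 weeks and 11.83 and 11.65 in the LF-HP pools, against 11.67 and 11.57 in the HF-NP pools, 11.64 and 11.57 in the LF-NP pools and 11.63 in the reference. HP exceeded NP in 4 of 4 matched comparisons, although the LF-HP pool of 12 weeks lay below the HF-NP pool of 1 week, so the ranges overlapped. Means were 11.73 ± 0.08 in HP and 11.61 ± 0.05 in NP pools (SD, n = 4 each), a difference of 0.11 (SE 0.06, 95% interval -0.03 to 0.25, limma adjusted p = 0.609).

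Baat (probe set 10512895), which joins the activated acid to an amino acid, mainly taurine in mice, measured 9.72 and 9.80 in the HF-HP pools of 1 and 12 weeks and 9.97 and 9.88 in the LF-HP pools, against 10.04 and 10.13 in the HF-NP pools, 9.77 and 9.89 in the LF-NP pools and 9.87 in the reference. The HF-NP pools were the 2 highest, and the HF-HP pool of 1 week was the lowest. On the HF diet the HP minus NP difference was -0.33 and on the LF diet 0.09, while over all pools it was -0.12 (SE 0.10, 95% interval -0.34 to 0.10, limma adjusted p = 0.767). Without the LF-HP pool of 1 week this last value was -0.20, and without the HF-NP pool of 12 weeks -0.06. The protein by fat interaction of -0.42 (SE 0.12, 95% interval -0.71 to -0.13) was the one with the smallest adjusted p among the 10 genes (limma adjusted p = 0.678) and did not pass.

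Abcb11 (probe set 10483410) encodes the bile salt export pump, a well known target of FXR. The log2 signal was 10.96 and 10.89 in the HF-HP pools of 1 and 12 weeks and 11.05 and 10.61 in the LF-HP pools, against 11.01 and 10.87 in the HF-NP pools, 10.90 and 10.97 in the LF-NP pools and 10.93 in the reference. The LF-HP pools were both the highest, at 1 week, and the lowest, at 12 weeks. Means were 10.88 ± 0.19 in HP and 10.94 ± 0.06 in NP pools (SD, n = 4 each), a difference of -0.06 (SE 0.09, 95% interval -0.26 to 0.14, limma adjusted p = 0.873).

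FXR binds with its partner RXR to an inverted repeat, AGGTCA followed by its reverse complement, with 1 base between them, and the RefSeq promoter of Abcb11 is shown because it holds a match to that repeat. In the 250 bases before the start, chr2:69342617-69342866 of GRCm38.p6 on the minus strand, capitals mark a match with 1 mismatch that begins 63 bases before the start.
Abcb11: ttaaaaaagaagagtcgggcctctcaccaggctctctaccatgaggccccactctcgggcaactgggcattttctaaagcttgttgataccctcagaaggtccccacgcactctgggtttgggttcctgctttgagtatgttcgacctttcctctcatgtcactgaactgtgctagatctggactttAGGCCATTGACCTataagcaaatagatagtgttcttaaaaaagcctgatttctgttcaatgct
At most 1 mismatch to the inverted repeat is found in 0.0822% of the promoters, at most 2 mismatches in 1.14% and a perfect repeat in 0.00913%. The right arm of the marked repeat is itself AGGTCA read on the other strand, and a further match with 2 mismatches begins 94 bases before the start. Among the 7 promoters of the 10 genes in the RefSeq table, which cover 6 of them, only that of Abcb11 held the repeat with up to 2 mismatches. The table used here had no entry for Cyp7a1, Cyp7b1, Baat and Slc27a5.

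Slc10a1 (probe set 10401289) encodes NTCP, the sodium-dependent carrier that takes up bile acids from blood. The log2 signal was 12.89 and 12.93 in the HF-HP pools of 1 and 12 weeks and 13.00 and 13.03 in the LF-HP pools, against 12.98 and 12.99 in the HF-NP pools, 13.01 and 13.08 in the LF-NP pools and 13.00 in the reference. The values spanned only 0.20 over the 9 pools, the narrowest range of the 10 genes. Although HP was lower in 4 of 4 matched comparisons, the difference was -0.06 (SE 0.05, 95% interval -0.17 to 0.06, limma adjusted p = 0.797). One of its 2 RefSeq promoters held AGGTCA, 87 bases before the start.

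The amount of variation differed among the genes. The SD over the 9 pools was 0.49 for Nr0b2, larger than that of 99.2% of all genes, and its values spanned 1.49. Cyp8b1 had an SD of 0.20, Nr1h4 of 0.18, Cyp7b1 of 0.17 and Cyp7a1 of 0.16, all above the median SD of all genes of 0.12. Slc10a1 and Cyp27a1 had an SD of 0.06 and 0.07, larger than that of only 7.97% and 13.3% of all genes.

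Against the single reference pool, with no test possible, the diet pools lay between -1.06 and 0.43 for Nr0b2 and between -0.50 and 0.01 for Cyp8b1. Cyp8b1 and Cyp27a1 were below the reference in 7 of 8 diet pools, and Nr0b2 in 6 of 8. Those of Nr0b2 included differences close to 0, -0.0036 (LF-HP, 1 week) and -0.0255 (HF-NP, 12 weeks). All differences share the same reference array, so they are not independent, and the shares of such counts over all genes were not computed. Cyp7b1 and Slc27a5 were above it in 6 of 8 pools, by at most 0.36 and 0.21. Cyp7a1 lay between -0.21 and 0.30.

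Dietary fat was compared over the same 8 pools. Between HF and LF pools, 0 of the 10 genes passed the test (limma adjusted p = 0.999 for each of them), and 0% of all genes did. At an unadjusted p under 0.05 the count was 0 of 10 genes and 3.33% of all genes. The largest differences were those of Nr1h4 with -0.18 (95% interval -0.36 to 0.0006) and Cyp7a1 with -0.17 (95% interval -0.42 to 0.08). That of Cyp7a1 was -0.07 when the HF-HP pool of 1 week was left out, and -0.28 when the LF-NP pool of 12 weeks was. Nr1h4 averaged 9.84 ± 0.23 in HF and 10.01 ± 0.10 in LF pools, and Cyp7a1 averaged 11.82 ± 0.10 in HF and 12.00 ± 0.20 in LF pools (SD, n = 4 each). Only Slc10a1 had separate ranges, 12.89 to 12.99 in HF and 13.00 to 13.08 in LF pools, as did 0.707% of all genes, with ranges that nearly touched, and its difference was -0.08 (95% interval -0.20 to 0.04). For Nr0b2 the interval ran from -0.51 to 0.59 around a difference of 0.04, so it includes sizeable differences in either direction.

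The duration of feeding, which goes together with age, was compared in the same fit. Between pools of 12 weeks and 1 week, 0 of the 10 genes passed (limma adjusted p between 0.635 and 0.938), against 0.00502% of all genes. At an unadjusted p under 0.05, 1 of the 10 genes, Cyp8b1, was counted, as were 7.71% of all genes. Cyp8b1 averaged 10.80 ± 0.09 in the pools of 12 weeks and 11.01 ± 0.22 in those of 1 week (SD, n = 4 each), a difference of -0.21 (95% interval -0.41 to -0.0052, limma adjusted p = 0.635). It was lower at 12 weeks on 3 of the 4 diets, the exception being HF-HP. Nr0b2 averaged 7.93 ± 0.69 at 12 weeks and 8.29 ± 0.22 at 1 week, a difference of -0.36 (95% interval -0.91 to 0.19, limma adjusted p = 0.718). It was -0.18 when the LF-HP pool of 12 weeks was left out, and -0.61 when the LF-NP pool of 12 weeks was. For the remaining 8 genes the difference lay between -0.15 (Abcb11) and 0.09 (Cyp7b1).

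**Figure D3:**
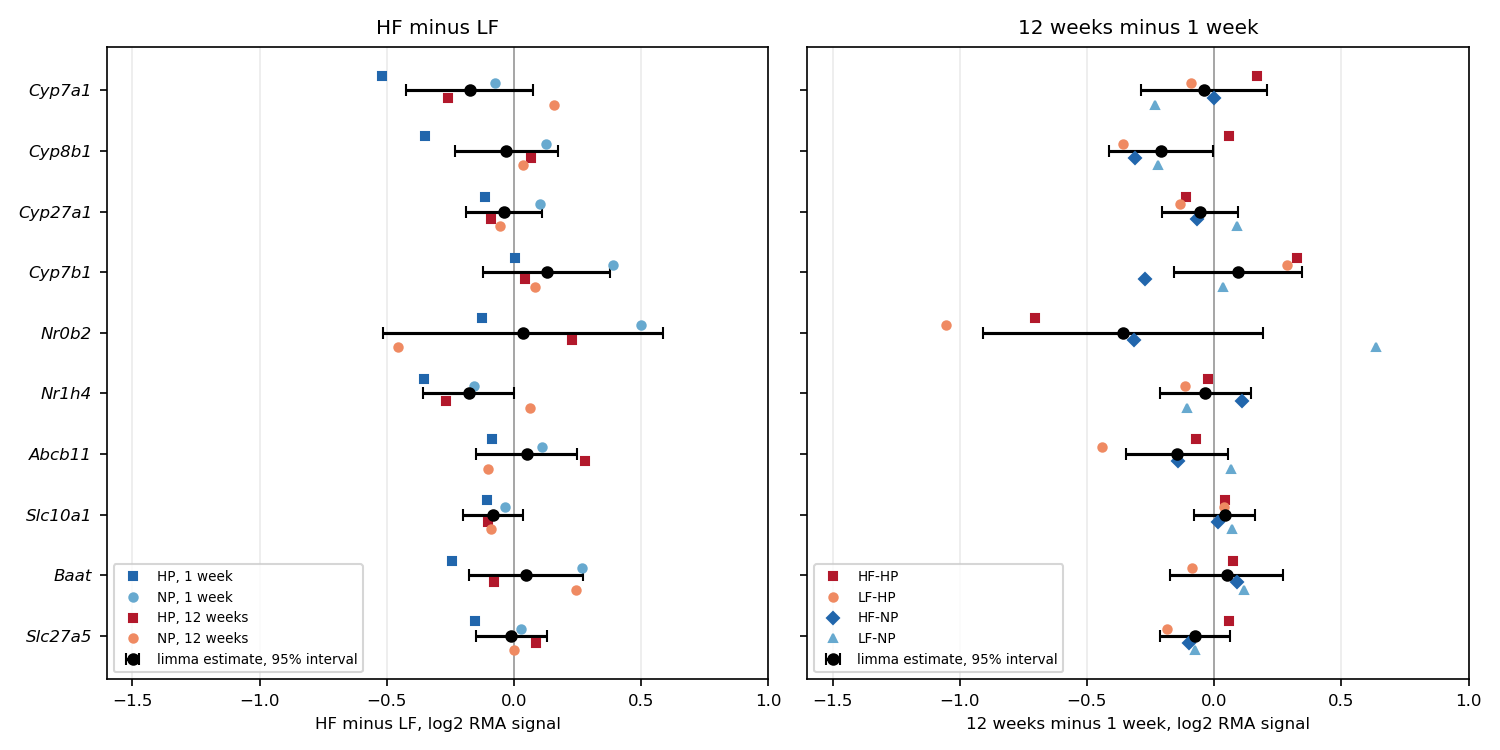
Black points and bars give the HF minus LF difference (left panel) and the 12 weeks minus 1 week difference (right panel) in log2 RMA signal (horizontal axes) with 95% intervals from limma for the 10 genes, and coloured points give the 4 matched comparisons behind each. All intervals of HF minus LF include 0, and of 12 weeks minus 1 week only that of Cyp8b1, -0.41 to -0.0052, does not.

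The 2 interactions were tested to see whether the response to protein depended on fat or on time. For protein by fat, 0 of the 10 genes passed, as did 0% of all genes, and 2 (Cyp7a1 and Baat) had an unadjusted p under 0.05, against 7.02% of all genes. For protein by week, 0 of the 10 genes passed, as did 0% of all genes, and 2 (Nr0b2 and Cyp7b1) had an unadjusted p under 0.05, against 2.62% of all genes. Markers of other liver cells varied along the first of these. All 6 markers of Kupffer cells, the resident macrophages, had a positive protein by fat interaction with a median of 0.66, against 0.03 for all genes, and 5 of the 6 had an unadjusted p under 0.05 with 0 past the test. The interaction was also positive for 5 of 5 endothelial (median 0.30), 4 of 5 stellate (median 0.15) and 3 of 6 cholangiocyte markers (median 0.08). The 5 hepatocyte markers had a median of -0.03. The part of these cells in the values of Cyp7a1 and Baat was not tested.

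Marker sums overlapped between HP and NP pools for 5 of 6 lists, which does not show that cell content was alike. Of all single genes, 4.79% had separate ranges. Some markers inside the overlapping sums, named after their values were seen, had an unadjusted limma p under 0.05, and 0 passed. In HP minus NP these were hepatocyte Tat (0.37) and Cps1 (0.22), endothelial Lyve1 (0.53) and Kdr (-0.15), and Kupffer Clec4f (-0.26). The stellate and cholangiocyte lists held 0, and the share of all genes was 10.3%. The log2 of the summed signal was 15.85 to 15.93 in HP and 15.76 to 15.88 in NP pools for 5 of 6 hepatocyte markers. For 6 of 6 cholangiocyte and gallbladder markers it was 8.12 to 8.21 in HP and 8.12 to 8.53 in NP pools. Of these, Muc1 (6.52) and Krt19 (5.98), named after their values were seen, were highest in the LF-NP pool of 12 weeks. That pool was also the highest for Nr0b2, and the other markers of the list peaked in other pools. The part of these markers in the values of Nr0b2 was not tested. For 6 of 6 Kupffer markers the log2 sum was 10.32 to 11.12 in HP and 10.69 to 11.19 in NP pools. Stellate markers (5 of 5) summed to 11.82 to 12.09 in HP and 11.88 to 12.01 in NP pools, and endothelial markers (5 of 5) to 11.32 to 11.73 in HP and 11.29 to 11.69 in NP pools. Linear signals were summed, so a sum rests mostly on its brightest genes. In the stellate list the gene means ran from 6.31 to 11.46. Only the list for pancreas or gut had separate ranges, 9.70 to 10.15 in HP and 10.58 to 10.95 in NP pools for 4 of 6 markers. The sum followed Fabp2, a fatty acid-binding protein known from the intestine, which fell by 0.79 (SE 0.11, limma adjusted p = 0.0399) with 9.85 ± 0.23 in HP and 10.64 ± 0.17 in NP pools (SD, n = 4 each). The other 3 measured genes of that list differed by -0.02 (Cela1), 0.08 (Fabp6) and 0.05 (Vil1) between HP and NP pools, and none of them passed. The part of Fabp2 in the values of the bile acid genes was not tested.

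Around the 10 genes, 5 further lists of bile acid metabolism held 55 genes, of which 54 had a value. Between HP and NP pools, 0 of the 54 passed the test, and 19 (35.2%) had an unadjusted p under 0.05, against 10.3% of all genes. At that level 6 genes (11.1%) were counted for HF against LF, where 3.33% of all genes were, and 11 (20.4%) for 12 weeks against 1 week, where 7.71% were. For protein by fat it was 11 genes (20.4%) against 7.02% of all genes, and for protein by week 3 (5.56%) against 2.62%, with 0 past the test in each. These lists were chosen with earlier results of these data known. The shares over all genes include many genes of low signal, so they are not shares of genes at a like signal.

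Among 13 other enzymes of synthesis, HP minus NP was positive for 3 and negative for 10 (median -0.09), and 6 of 13 had an unadjusted p under 0.05, against 10.3% of all genes. Hsd3b7, which acts after the 7-alpha-hydroxylation in both routes, differed by -0.18 (95% interval -0.32 to -0.04, limma adjusted p = 0.339). Akr1d1, the 5-beta-reductase of the steroid ring, differed by -0.03 (95% interval -0.28 to 0.23), and Akr1c6, a hydroxysteroid dehydrogenase, by -0.25 (95% interval -0.42 to -0.07, limma adjusted p = 0.281). The 3 positive differences, chosen after their values were seen, were those of Acot8 with 0.03 (95% interval -0.17 to 0.24), Cyp46a1 with 0.43 (95% interval 0.13 to 0.74, limma adjusted p = 0.287) and Cyp39a1, an oxysterol 7-alpha-hydroxylase. Cyp39a1 measured 9.48 and 8.81 in the HF-HP pools of 1 and 12 weeks and 9.37 and 8.57 in the LF-HP pools, against 8.02 and 7.41 in the HF-NP pools and 8.48 and 8.70 in the LF-NP pools. The HP and NP ranges overlapped, and the difference of 0.90 (SE 0.25, 95% interval 0.33 to 1.48) did not pass (limma adjusted p = 0.238).

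The 12 other carriers of bile acids and biliary lipids split into 7 positive and 5 negative differences, with a median of 0.04 and 4 of 12 genes at an unadjusted p under 0.05, against 10.3% of all genes. Members of the organic anion carriers of the sinusoidal membrane differed in opposite directions. Slco1a1 averaged 10.90 ± 0.26 in HP and 11.32 ± 0.20 in NP pools (SD, n = 4 each), a difference of -0.42 (95% interval -0.68 to -0.17, limma adjusted p = 0.226). Slco1a4 averaged 8.22 ± 0.35 in HP and 7.56 ± 0.50 in NP pools, a difference of 0.66 (95% interval 0.22 to 1.10, limma adjusted p = 0.266). Slco1b2, the last of those named, differed by -0.19 (95% interval -0.38 to 0.0056). None of them passed, and members of this family share sequence, so that their probes may not tell them apart fully.

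Of 17 regulators of bile acid synthesis, 10 had a positive and 7 a negative difference, with a median of 0.03 and 3 of 17 genes at an unadjusted p under 0.05, against 10.3% of all genes. The receptor complex for the intestinal hormone FGF15 differed little: Fgfr4 by 0.08 (95% interval -0.12 to 0.28) and its partner Klb by 0.10 (95% interval -0.07 to 0.26). Fgf15 itself, made in the ileum, had a low signal of 4.74 ± 0.08 in HP and 4.66 ± 0.11 in NP pools (SD, n = 4 each). The regulator closest to the threshold, named after its values were seen, was Ppargc1a, a coactivator of fasting metabolism that also coactivates Cyp7a1. It measured 9.47 and 9.79 in the HF-HP pools of 1 and 12 weeks and 9.15 and 8.68 in the LF-HP pools, against 7.90 and 7.64 in the HF-NP pools, 7.90 and 8.18 in the LF-NP pools and 8.48 in the reference. All HP pools were above all NP pools, and 4.79% of all genes had separate ranges. The difference of 1.36 (SE 0.22, 95% interval 0.84 to 1.89) did not pass (limma adjusted p = 0.0592).

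Bile acid detoxification was represented by 6 of 7 listed genes, with 4 positive and 2 negative differences, a median of 0.04 and 3 of 6 genes at an unadjusted p under 0.05, against 10.3% of all genes. Cyp3a11, a hydroxylase under the control of PXR, averaged 11.04 ± 0.70 in HP and 11.83 ± 0.13 in NP pools (SD, n = 4 each), a difference of -0.79 (95% interval -1.45 to -0.13, limma adjusted p = 0.378). Its lowest value, 10.00, was in the HF-HP pool of 12 weeks. Cyp2b10, the classical target of CAR, averaged 6.54 ± 1.51 in HP and 5.30 ± 0.81 in NP pools, a difference of 1.24 (95% interval 0.30 to 2.17, limma adjusted p = 0.322). Its high values were 8.12 and 7.45 in the LF-HP and HF-HP pools of 1 week, whereas at 12 weeks these diets gave 4.82 and 5.77. Both genes belong to large families with near-identical copies, and Sult2a1 was not measured because its probe sets carry several gene symbols.

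The 6 clock factors that act on Cyp7a1, whose transcription follows the time of day, gave 3 positive and 3 negative differences, with a median of -0.02 and 3 of 6 genes at an unadjusted p under 0.05, against 10.3% of all genes. Dbp differed by 0.19 (95% interval 0.01 to 0.38, limma adjusted p = 0.453), and Nr1d1, which encodes REV-ERB alpha, by 0.16 (95% interval -0.16 to 0.48). Bhlhe40, the repressor also called DEC1, measured 8.79 and 8.70 in the HF-HP pools of 1 and 12 weeks and 8.57 and 8.86 in the LF-HP pools, against 9.21 and 9.30 in the HF-NP pools and 8.99 and 9.25 in the LF-NP pools. The ranges were separate, as were those of 4.79% of all genes, and the difference of -0.46 (SE 0.08, 95% interval -0.64 to -0.28) did not pass (limma adjusted p = 0.0648). Hlf, named after its values were seen, also had separate ranges, 8.64 to 8.88 in HP and 8.92 to 9.14 in NP pools. Its difference of -0.31 did not pass (limma adjusted p = 0.0828). Between 12 weeks and 1 week, 5 of the 6 factors had a positive difference. It was 0.41 for Dbp and 0.35 for Nr1d1 (limma adjusted p = 0.499 and 0.605). The reference pool, at 7.65 for Dbp and 7.66 for Nr1d1, lay below every diet pool for both. The part of the time of day in the comparisons of weeks and with the reference was not tested.

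**Figure D4:**
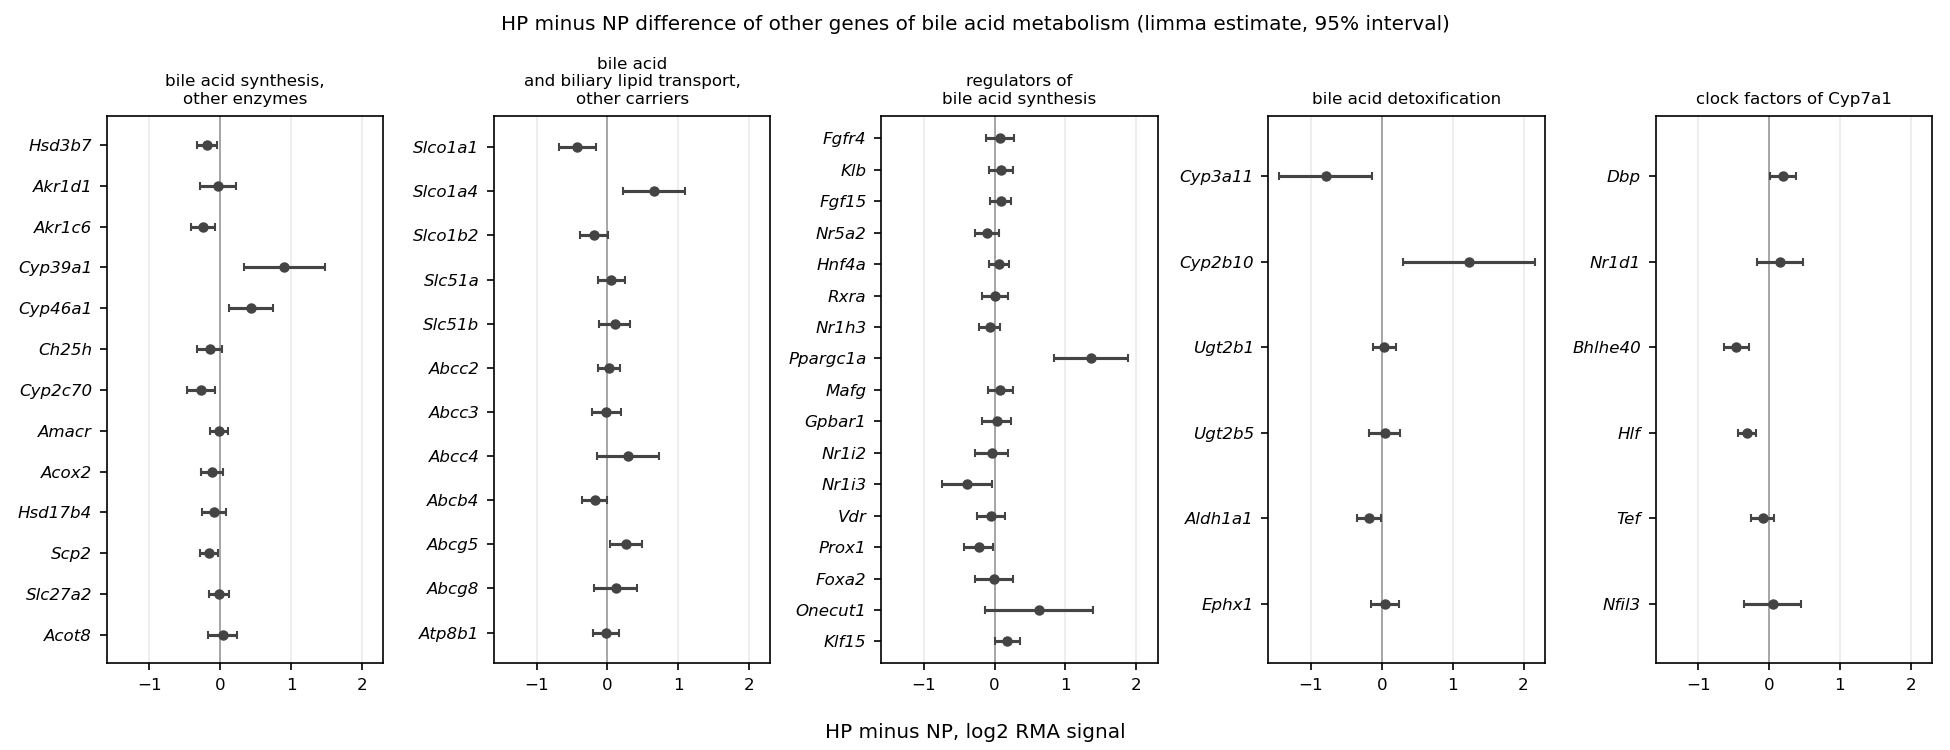
HP minus NP on the log2 RMA scale (horizontal axis) is given with the 95% interval from limma for 54 genes in 5 lists around the 10 bile acid genes, 1 panel per list. The intervals of most genes lie close to 0, and those of Ppargc1a, 0.84 to 1.89, and Bhlhe40, -0.64 to -0.28, lie farthest from it relative to their width.

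The profile of 3 of the genes over the 9 pools was set against all other genes, as a description in which all points share the same arrays. For Nr0b2 the highest Pearson correlations were with Gsk3b (0.968), Rbm4b (0.968) and Hipk1 (0.967). For Cyp8b1 they were with Vnn3 (0.969), Txlng (0.956) and Wrnip1 (0.953). For Cyp7a1 they were lower and fell on Olfr120 (0.931), Prdm6 (0.921) and Lbx2 (0.917), whose own mean signals were only 3.31, 4.59 and 4.33. Among the 10 genes themselves the highest correlations were those of Nr0b2 with Abcb11 (0.792) and of Nr1h4 with Slc10a1 (0.738), and the lowest that of Nr0b2 with Cyp7b1 (-0.546).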

How the data were processed

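The deposited table holds log2 values that the authors made with RMA (background correction, quantile normalisation and summary per probe set); per the labels, 1 array was run for each pool. According to the methods, probe sets had been regrouped by Entrez Gene, whereas the table carries the array's own identifiers. No further normalisation or filter was applied. Of 35556 probe sets, 21789 with 1 gene symbol were kept, and where a gene had several (999 genes) the probe set of highest mean stood for it, which left 19938 genes.

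HP and NP, HF and LF, and 12 and 1 week were fitted in limma 3.58.1 (R 4.3.3) as additive terms over the 8 diet pools (4 residual degrees of freedom, 3.52 from the prior), without the reference pool. Each interaction was tested in a fit with 1 more term. Adjustment followed Benjamini and Hochberg, over all genes and at a threshold of 0.05. With 1 pool per diet and week, p-values rest on the spread between pools left after the fitted terms. That spread holds any interaction not fitted as well as noise between pools. Precision is limited by the number of arrays, which hold no counts.

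All 10 genes are named, with the first 3 genes of each further list, any listed gene past the test and the 3 closest profiles of Cyp7a1, Cyp8b1 and Nr0b2. Other genes, such as Cyp39a1 and Ppargc1a, were picked after their values were seen, as the text says of each. Members and lists were chosen with earlier results of these data known. Alternatives for all 5 comparisons were a filter on the level, a prior trend, array weights, centred arrays and a threshold of 0.1. For HP against NP, HF against LF and 12 weeks against 1 week, no covariates, matched pools as a block, the mean of probe sets and leaving out each pool were added, and for HP against NP also 1 week or 1 fat level alone.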

Additional observations from a re-analysis of the deposited data

How the results depend on the processing

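Of the 10 genes, 0 passed the test under any of the alternatives run. These numbered 20 for HP against NP, and 16 each for HF against LF and for 12 weeks against 1 week. For each interaction there were 5, where no pool was left out. The smallest adjusted p among the recomputed values was 0.141 (limma, Nr1h4, HP against NP, among genes above the median level). Fits to 1 week or 1 fat level alone held fewer pools and left few residual degrees of freedom, so not passing there says little. Of 490 recomputed differences of single genes, 460 kept their sign and 30 took the other sign, and the cause was not tested. That count includes settings that could not change these differences. They were the filter on the level, the prior trend, no covariates, matched pools as a block and the mean of probe sets. The design is balanced and each of the 10 genes has 1 probe set. In HF pools alone the HP minus NP difference was -0.13 for Cyp7a1, -0.0557 for Cyp27a1 and -0.0058 for Cyp7b1, and in LF pools alone it was 0.0908 for Baat. In the pools of 12 weeks alone it was -0.0593 for Cyp27a1, and in those of 1 week alone -0.11 for Cyp7b1 and 0.0441 for Abcb11. With each pool left out in turn, the HP minus NP difference ranged from -0.0447 to 0.0367 for Cyp27a1, from -0.0186 to 0.19 for Cyp7a1 and from -0.13 to 0.0204 for Abcb11. Without a change of sign it ranged from 0.03 to 0.22 for Cyp7b1 and from -0.20 to -0.06 for Baat. That of HF minus LF ranged from -0.21 to 0.29 for Nr0b2, from -0.0213 to 0.13 for Baat, from -0.0839 to 0.0644 for Cyp8b1, from -0.0376 to 0.0294 for Slc27a5 and from -0.0353 to 0.11 for Abcb11. That of 12 weeks minus 1 week ranged from -0.0205 to 0.13 for Baat, from -0.15 to 0.0622 for Cyp7a1 and from -0.10 to 0.0185 for Nr1h4. HP minus NP kept its sign for Nr0b2 (-0.87 to -0.38), Nr1h4 (-0.31 to -0.19) and Cyp8b1 (-0.27 to -0.11). The same held for Slc10a1 (-0.07 to -0.04) and Slc27a5 (0.08 to 0.15). With 1 pool of 5 mice per diet and week, the spread between mice is unknown. With matched pools as a block, no call changed; the labels carry no replicate numbers.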
